A study of Mus musculus with 6 samples.

Results

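The adipokines and batokines followed here in brown adipose tissue were 10 secreted factors of fat, chosen by name: Lep, Adipoq, Retn, Cfd, Rbp4, Nampt, Apln, Vegfa, Fgf21 and Nrg4. All 10 were found among the 54385 rows of the deposited table of estimated counts, and 9 passed the filter on low counts. Fgf21 did not. The tissue came from C57BL/6N mice aged 20 weeks and fed chow. Wild type (WT, labelled wt/wt) was sequenced in 3 libraries, and the knockout ADCY3∆AT, which lacks the form of adenylyl cyclase 3 called Adcy3-AT, in another 3. The series title describes a truncated, cold-induced form of this enzyme, which makes cyclic AMP, and names it as a control on brown fat. The comparison therefore asks how the RNA of these hormones differed when that form was missing. The sources used here do not state how the allele was made, the sex of the mice or whether each library came from a separate mouse. The p-values measure the spread between libraries, part of which may be technical.

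Adipokines are proteins that fat cells release into the blood or the surrounding tissue, and batokines are those released by brown fat. Leptin reports the size of fat stores to the brain, adiponectin makes other tissues more sensitive to insulin, and resistin and the retinol carrier RBP4 are linked to insulin resistance in mice. Leptin RNA is typical of white adipocytes, and signals that raise cyclic AMP lower it in these cells. Brown fat also releases factors that act nearby or on distant organs, among them VEGF-A, which builds capillaries, NRG4, which acts on nerve and liver, and FGF21.

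Library totals ran from 13758492 to 19592156 estimated counts. Values are CPM, estimated counts scaled to the effective library total by edgeR's trimmed mean of M-values, and a member was called when its Benjamini-Hochberg adjusted p in edgeR, taken over all 14332 tested genes, was under 0.05. Differences are given as the fitted log2 ratio of ADCY3∆AT to WT. The row of Adcy3 itself held 248, 209 and 166 CPM in WT and 167, 195 and 240 CPM in ADCY3∆AT. A row without a symbol, whose identifier (ENSMUSG66666620654) ends in the digits of Adcy3, held 215, 197 and 118 CPM in WT and 1.27, 0 and 0 CPM in ADCY3∆AT, where a count of 0 allows up to 0.199 and 0.152 CPM. Both genotypes expressed the markers of brown fat: Ucp1 held 4786 ± 963 CPM (SD, n = 3) in WT and 4239 ± 231 CPM in ADCY3∆AT, and the sum of 10 brown markers ran from 6824 to 8438 CPM and from 7032 to 7779 CPM. Ucp1 weighs most in that sum. Of the 10 markers, 7 had a negative and 3 a positive log2 ratio, and edgeR called none. Ppargc1a held 22.2, 21.8 and 13.6 CPM in WT and 26.2, 41.2 and 47.9 CPM in ADCY3∆AT, without overlap (log2 ratio 1.01, adjusted p = 0.0609 in edgeR). Of all tested genes, 29% had no overlap between genotypes. Zic1 and Lhx8, transcription factors of interscapular brown fat, were present. Hoxc9 and Hoxc10, homeobox genes of inguinal fat, were at most 0.25 CPM in any library, while other markers of subcutaneous white fat were present in every library: Hoxc8 at 1.92 to 9.81 CPM, Tbx15 at 2.15 to 3.21 CPM, Nnat at 4.58 to 18.5 CPM and Krt79 at 7.43 to 13.0 CPM. The sample labels call the tissue interscapular and the design text calls it inguinal. The summed level of 11 skeletal muscle markers was 23.4, 113 and 659 CPM in WT replicates 1, 2 and 3 and 1.82 to 3.19 CPM in ADCY3∆AT, and 8 of the 9 that could be tested were called lower by edgeR. Its part in the results below was not tested.

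The members spanned more than 3 orders of magnitude in abundance. Levels of different genes can be compared only per length, so CPM were divided by the length of the merged exons in kb. In WT, Cfd (complement factor D, or adipsin, the serine protease that starts the alternative complement pathway) stood at 808 ± 314 CPM per kb (SD, n = 3), followed by Adipoq (adiponectin) at 427 ± 50.7 CPM per kb. WT libraries ran from 504 to 1132 CPM per kb for Cfd and from 395 to 486 CPM per kb for Adipoq, which do not overlap. Vegfa, Nampt and Rbp4 formed the next tier, with WT means of 92.8, 88.0 and 63.3 CPM per kb. Vegfa (82.4 to 98.1 CPM per kb) and Nampt (87.1 to 88.9 CPM per kb) overlapped and could not be ordered. Retn, Nrg4 and Lep had means of 19.0, 17.2 and 11.3 CPM per kb, and their WT ranges overlapped too. Apln stood at 3.52 and Fgf21 at 0.262 CPM per kb. The place of Nrg4 in this order depends on its gene model, since the exons of its 13 annotated transcripts merge to 6075 bp while its longest coding transcript has 1927 bp. On that shorter length it stood at 54.1 CPM per kb, close to Rbp4. The 10 members together took 0.244 ± 0.0408% of all counts in WT and 0.222 ± 0.0289% in ADCY3∆AT (SD, n = 3).

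**Figure D1:**
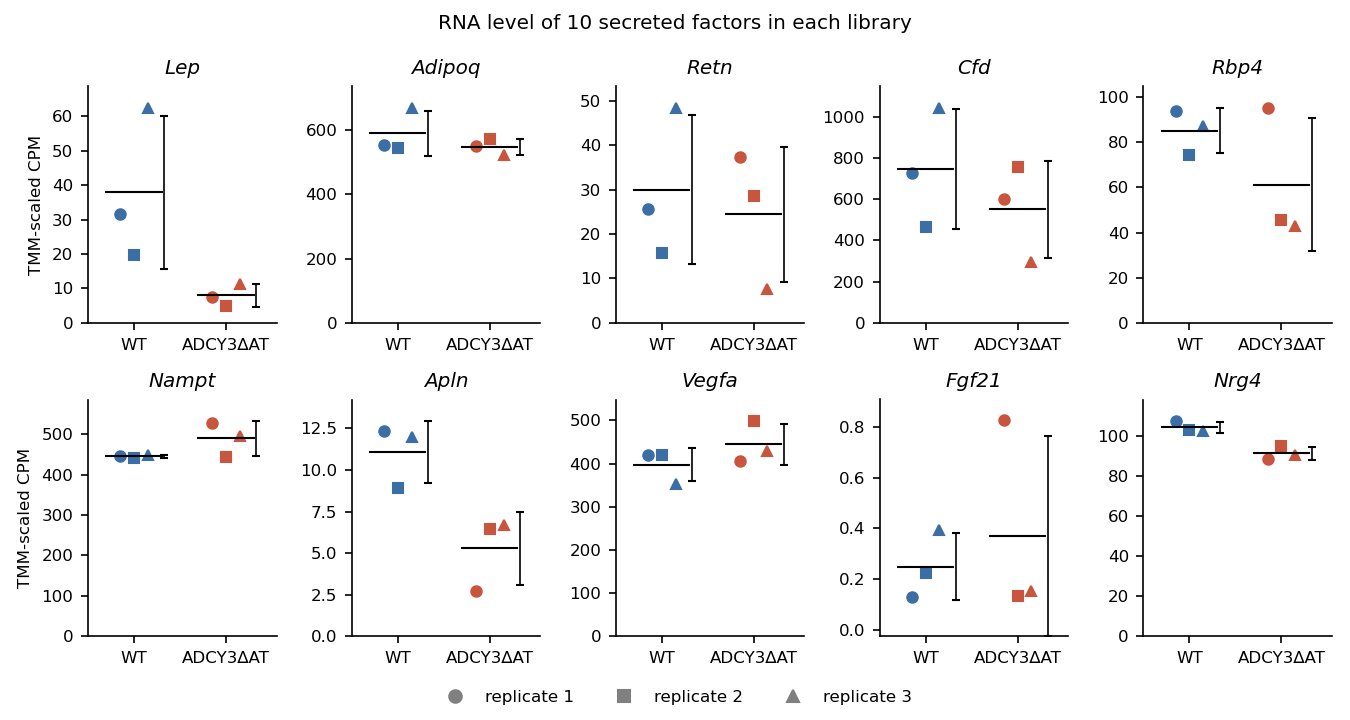
Each panel plots TMM-scaled CPM of a member by genotype, with points for single libraries, a line at the mean and a bar of ± 1 SD (n = 3). The knockout libraries of Lep (4.98 to 11.4 CPM), Apln and Nrg4 lie below all WT libraries, and those of the other members overlap them. Of all tested genes, 29% had no overlap between genotypes (13.9% lower).

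Lep, which encodes leptin, was the only member that edgeR called. It lies on chromosome 6 from 29060220 to 29073877 (plus strand, GRCm38), with 3 exons in its longest coding transcript. Its level was 31.7, 19.6 and 62.5 CPM in the WT libraries, in replicate order, and 7.49, 4.98 and 11.4 CPM in ADCY3∆AT. Every knockout library was below every WT library, although WT replicate 3 was 3.19 times WT replicate 2. Lep was 4.72-fold lower in ADCY3∆AT (95% interval 2.37-fold to 9.42-fold, log2 ratio -2.24, SE 0.44, adjusted p = 0.0312 in edgeR). The exact permutation p was 0.1, two-sided, the smallest that 3 against 3 libraries allow. Among all tested genes, 4.3% were called (1.67% lower), and 99.7% had a smaller absolute log2 ratio than Lep. The genotypes did not overlap in 29% of them (13.9% lower). In the counts themselves the fall was from 485, 265 and 1109 to 136, 75 and 226, so counting error was small beside the spread between libraries.

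The direction of Lep was the same in all 14 alternative analyses, but the call was not. Its log2 ratio ran from -2.60 to -1.67. Without WT replicate 3, the library with the most leptin and the most muscle RNA, the log2 ratio was -1.67 (adjusted p = 0.0579 in edgeR). The call also ended without WT replicate 1 (adjusted p = 0.0846), without knockout replicate 1 (adjusted p = 0.0695), without knockout replicate 2 (adjusted p = 0.1) and in limma-voom (adjusted p = 0.0576). It held without WT replicate 2 (adjusted p = 0.0237) and without knockout replicate 3 (adjusted p = 0.0482), and DESeq2 gave adjusted p = 0.00431. Since leptin is made by adipocytes, adiponectin was used as a reference within each library. Lep stood at 2.35%, 1.48% and 3.84% of the per-kb level of Adipoq in WT and at 0.56%, 0.358% and 0.899% in ADCY3∆AT, and these groups did not overlap. In bulk tissue, fewer leptin-expressing cells and less leptin RNA per cell cannot be told apart.

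**Figure D2:**
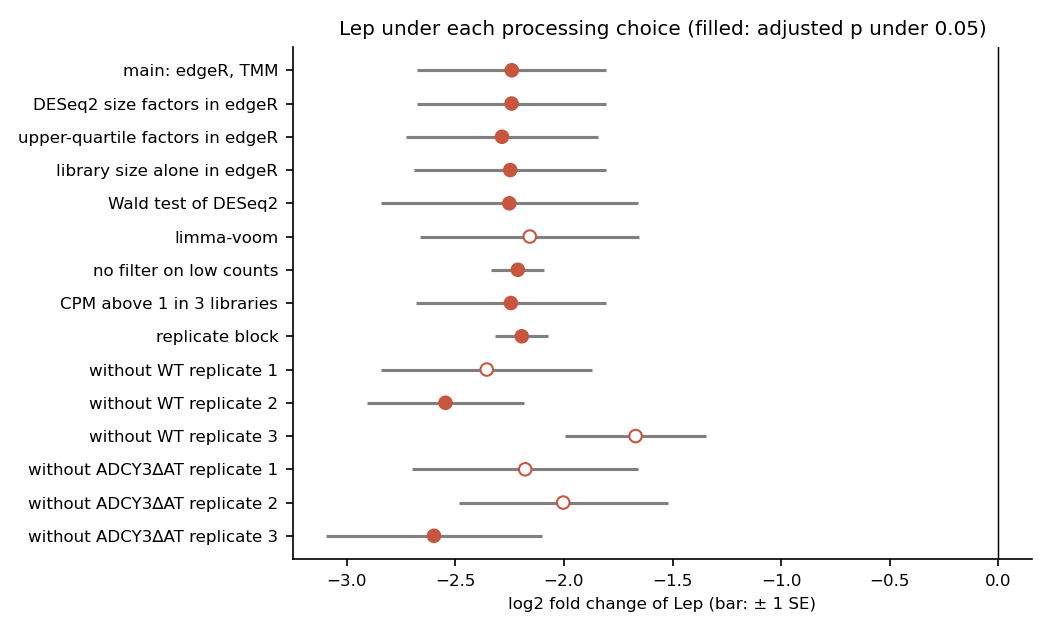
Log2 ratio of Lep (ADCY3∆AT minus WT, bars ± 1 SE) under the main analysis and each alternative, with filled points where the adjusted p was under 0.05. All points lie between -2.60 and -1.67, and 5 of the 14 alternatives have open points.

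The promoter windows of Lep and Apln, the members with the largest differences, are shown because promoters hold binding sites of transcription factors, among them factors that answer to hypoxia and cyclic AMP. They are the 250 bases before the start, from RefSeq on GRCm38.p6 (windows were found for 10 of 10 members, 12 windows in all). For Lep the window is chr6:29059971-29060220 (plus strand) and for Apln chrX:48034854-48035103 (minus strand), both written 5′ to 3′ with motif matches in capitals.
Lep: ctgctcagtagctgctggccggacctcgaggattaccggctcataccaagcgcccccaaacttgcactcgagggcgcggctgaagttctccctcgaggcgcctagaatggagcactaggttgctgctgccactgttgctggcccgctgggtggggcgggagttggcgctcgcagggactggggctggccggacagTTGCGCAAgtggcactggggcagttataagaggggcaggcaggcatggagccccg
Apln: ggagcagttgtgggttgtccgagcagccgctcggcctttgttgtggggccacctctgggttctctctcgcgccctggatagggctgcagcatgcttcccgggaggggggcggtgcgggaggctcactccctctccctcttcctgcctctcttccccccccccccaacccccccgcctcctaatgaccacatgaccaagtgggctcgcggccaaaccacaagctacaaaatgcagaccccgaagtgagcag
The only match is the palindrome TTGCGCAA of C/EBP factors in Lep, whose first base lies 55 bases before the start. This motif was added after the sequence was seen, and 0.164% of 32851 promoter windows hold it. The other motifs, searched on both strands, were the hypoxia response core ACGTG (in 16.6% of windows), the core TGACG of the cyclic AMP response element (17.8%), the E-box CACGTG, which contains the hypoxia core (6.02%), and the CCAAT box (33.8%). None of these 4 is in the window of Lep, Retn, Cfd or Apln. The windows of Fgf21 and Nampt each hold at least 1 match to ACGTG and to TGACG. Rbp4 and Vegfa have 2 windows each, of which window 2 holds both motifs and window 1 neither. Nrg4 holds ACGTG alone, and Adipoq only the CCAAT box. The shares above are per window. A match is a description of letters and not of binding. Cebpa, the C/EBP factor of mature adipocytes, held 602 CPM in WT and 497 CPM in ADCY3∆AT on average (log2 ratio -0.28, SE 0.07, adjusted p = 0.0620 in edgeR), and its 3 knockout libraries (491 to 507 CPM) lay below the 3 of WT (559 to 636 CPM). Groups did not overlap in 29% of all tested genes. Cebpb and Cebpd, other C/EBP genes, went the other way. Their log2 ratios were 0.34 (adjusted p = 0.191 in edgeR) and 1.5 (adjusted p = 0.109 in edgeR). Cebpa, Cebpb and Cebpd were named for this motif, after their values were seen.

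Retn, Cfd and Adipoq, the other classic hormones of adipocytes, were not called. Retn, the gene of resistin (chromosome 8 from 3655770 to 3660110, plus strand), held 25.7, 15.7 and 48.5 CPM in WT and 37.3, 28.5 and 7.64 CPM in ADCY3∆AT. Its groups overlapped in part, with knockout replicate 3 below every WT library and WT replicate 3 above every knockout library, and the log2 ratio was -0.31 (95% interval -1.56 to 0.94, adjusted p = 0.784 in edgeR). The ratio became positive when either WT replicate 3 (0.23) or knockout replicate 3 (0.13) was left out. Cfd (chromosome 10 from 79890853 to 79892655, plus strand) held 727, 465 and 1044 CPM in WT and 599, 756 and 295 CPM in ADCY3∆AT (log2 ratio -0.44, 95% interval -1.26 to 0.39, adjusted p = 0.515 in edgeR). Adipoq (chromosome 16 from 23146536 to 23158028, plus strand) was steadier, with 554, 545 and 670.5 CPM in WT and 550, 573 and 524 CPM in ADCY3∆AT. Its log2 ratio was -0.10 (95% interval -0.31 to 0.11, adjusted p = 0.547 in edgeR), an interval that leaves out a change as large as that of Lep.

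Within WT the libraries stood in the same order for Lep, Retn, Cfd and Adipoq: replicate 3 was highest and replicate 2 lowest. That order was not particular to them, since Nampt and the red cell gene Hbb-bs had it too. Lep and Retn also moved by nearly the same factor, at 0.84, 0.52 and 1.65 times the WT mean for Lep and 0.86, 0.53 and 1.62 times for Retn. In the knockout that parallel was gone in replicates 1 and 2. Retn stood there at 1.24 and 0.95 times its WT mean while Lep stood at 0.20 and 0.13 times. In knockout replicate 3 both were low, at 0.25 times (Retn) and 0.30 times (Lep) the WT mean. Hoxc8, a homeobox gene whose RNA marks adipocytes of posterior subcutaneous fat, was 6.33, 3.25 and 9.81 CPM in WT and 5.94, 2.99 and 1.92 CPM in ADCY3∆AT (log2 ratio -0.85, SE 0.47, adjusted p = 0.327 in edgeR). Its order of libraries was that of Retn in both genotypes. The 7 markers of subcutaneous white fat to which Hoxc8 belongs summed to 29.3, 23.5 and 33.4 CPM in WT and 34.8, 27.4 and 21.8 CPM in ADCY3∆AT. These sums overlapped between genotypes, but they join genes that went opposite ways. Mean levels in WT and ADCY3∆AT were 6.89 and 13.6 CPM for Nnat and 12.4 and 7.91 CPM for Krt79. Of the 4 markers with enough counts to test, 1 was called, against 4.3% of all tested genes. It was Krt79, a keratin gene (1.56-fold lower, adjusted p = 0.0257 in edgeR). That call was lost without any single library except knockout replicate 3, and with the replicate block (adjusted p = 0.07). Nnat, an imprinted gene, had a log2 ratio of 0.97 (adjusted p = 0.112 in edgeR). Whether other fat was carried over in different amounts was not tested.

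**Figure D3:**
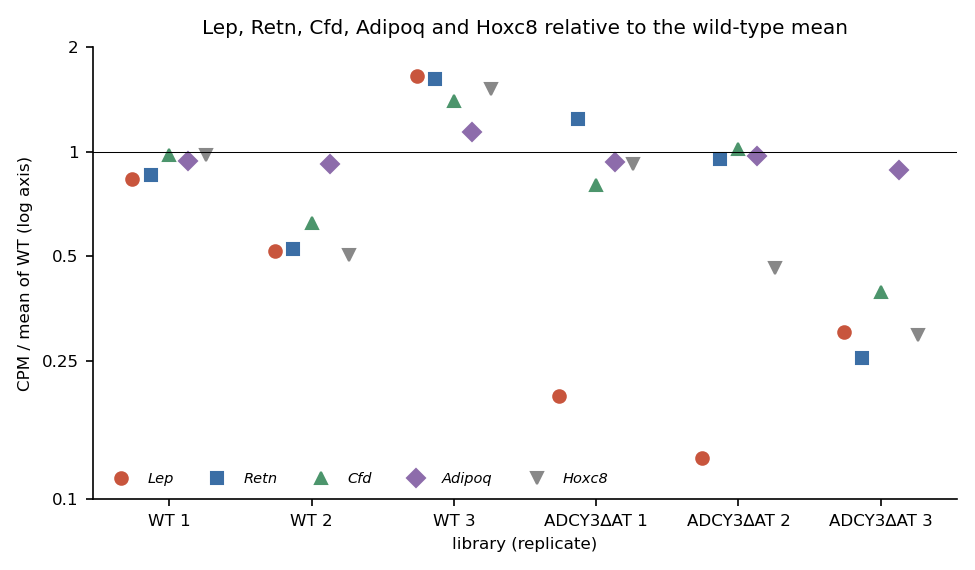
Level of Lep, Retn, Cfd, Adipoq and Hoxc8 in each library divided by its WT mean (log axis, symbols set side by side within a library). Lep and Retn coincide in the 3 WT libraries (0.52 to 1.65) and part in knockout replicates 1 and 2, where Retn is at 1.24 and 0.95 and Lep at 0.20 and 0.13.

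Rbp4 and Nampt, a carrier and an enzyme that also circulate as hormones, were not called. RBP4 carries retinol in blood. Rbp4 (chromosome 19 from 38116629 to 38125281, minus strand) held 93.8, 74.2 and 87.1 CPM in WT and 95.4, 45.6 and 42.8 CPM in ADCY3∆AT. Knockout replicate 1 sat above all WT libraries and the other 2 below them. With all libraries the log2 ratio was -0.47 (95% interval -1.11 to 0.17, adjusted p = 0.360 in edgeR), and without knockout replicate 1 it was -0.94 and called (edgeR adjusted p = 0.00605). NAMPT makes nicotinamide mononucleotide, the precursor of NAD, inside cells. Nampt (chromosome 12 from 32819545 to 32853349, plus strand) held 445, 440 and 449 CPM in WT, the tightest group of any member (coefficient of variation 1.03%), and 529, 444 and 496 CPM in ADCY3∆AT. The log2 ratio was 0.14 (95% interval -0.04 to 0.31, adjusted p = 0.324 in edgeR), and knockout replicate 2 lay inside the WT range.

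Apln and Vegfa act on blood vessels, and neither was called by edgeR. Apelin, the product of Apln, is a peptide that adipocytes and endothelial cells release and that widens vessels. Apln (chromosome X from 48025146 to 48034853, minus strand) held 12.3, 8.94 and 11.9 CPM in WT and 2.75, 6.44 and 6.68 CPM in ADCY3∆AT. The groups did not overlap, as was the case for 29% of all tested genes. The log2 ratio was -1.07 (95% interval -1.75 to -0.39, adjusted p = 0.0841 in edgeR, exact permutation p = 0.1), and DESeq2 called it (adjusted p = 0.0063). It ran from -1.29 to -0.75 over the 14 alternatives, the smallest difference being without knockout replicate 1. Its receptor gene Aplnr held 28.5, 25.0 and 27.8 CPM in WT and 6.49, 19.4 and 17.7 CPM in ADCY3∆AT, again with knockout replicate 1 lowest (log2 ratio -0.91, SE 0.32, adjusted p = 0.146 in edgeR). Without knockout replicate 1 the ratio of Aplnr was -0.54 and it was called (adjusted p = 0.0344 in edgeR). Vegfa (chromosome 17 from 46016993 to 46032369, minus strand, 13 annotated transcripts that the gene-level table does not separate) held 420, 420 and 353 CPM in WT and 407, 498 and 429 CPM in ADCY3∆AT. Its groups overlapped, with a log2 ratio of 0.16 (95% interval -0.07 to 0.39, adjusted p = 0.383 in edgeR).

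Nrg4 and Fgf21 are hormones that brown fat can release, and neither was called. Nrg4 (chromosome 9 from 55220222 to 55326844, minus strand) encodes an EGF-like ligand of ERBB receptors that brown fat is known to express. It held 107, 103 and 102 CPM in WT and 88.6, 94.7 and 90.5 CPM in ADCY3∆AT. The groups did not overlap, as in 29% of all tested genes. The difference was small (log2 ratio -0.19, SE 0.06, 95% interval -0.34 to -0.05) and was not called (adjusted p = 0.124 in edgeR, exact permutation p = 0.1). Of its exon bases 368 overlap exons of Fbxo22 on the other strand and 177 overlap a pseudogene, and the sources used here do not state whether reads were counted by strand. Fgf21 (chromosome 7 from 45613886 to 45615490, minus strand), the gene of a metabolic hormone that brown fat can release in the cold, had 2, 3 and 7 estimated counts in WT and 15, 2 and 3 in ADCY3∆AT. Its sums of 12 and 20 counts per genotype rest on knockout replicate 1, and no difference was detectable at this depth (exact permutation p = 0.8).

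**Figure D4:**
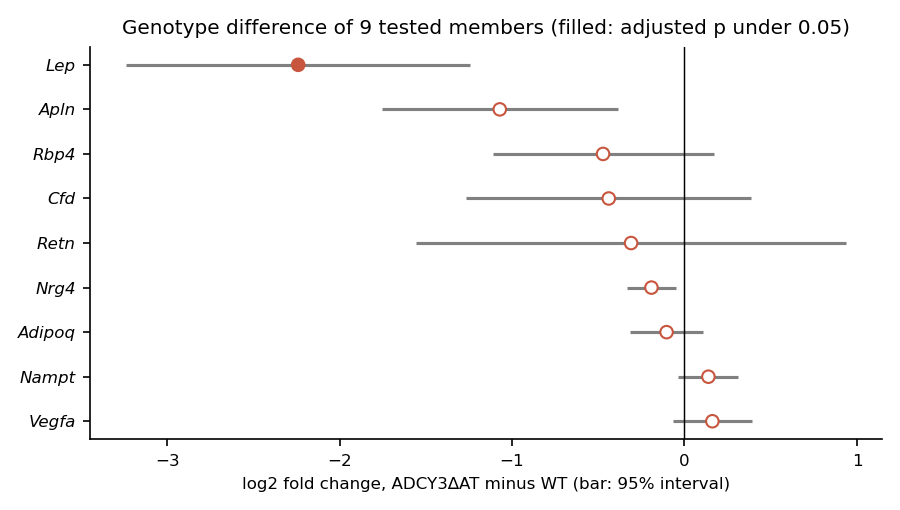
Log2 ratio of the 9 tested members (ADCY3∆AT minus WT) with 95% intervals from edgeR, filled where the adjusted p was under 0.05. Lep (-2.24) is the only filled point, and the intervals of Apln and Nrg4 also lie below 0.

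Of the 9 tested members, 1 fell and 8 were not called by edgeR, against 1.67% of all tested genes called lower and 2.63% called higher. The DESeq2 test called 2 (Lep and Apln, against 7.68% of the genes to which it gave an adjusted p) and limma-voom 0 (3.66% of all tested genes), with 3 at an unadjusted p under 0.05 in edgeR (22.6% of all tested genes). The median log2 ratio of the 9 was -0.31, beside -0.01 for all tested genes, and 7 of 9 were negative, beside 51.1% of all.

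Receptors and partners of the members were read against all tested genes: 4.3% called by edgeR, 22.6% at an unadjusted p under 0.05 and 29% without overlap between genotypes. No gene of leptin reception was called by edgeR or limma-voom among 7 tested, and 3 had an unadjusted p under 0.05. Stat3, which carries the leptin signal to the nucleus, had a log2 ratio of 0.48 (SE 0.18, adjusted p = 0.160 in edgeR) and Leprotl1, which restrains surface leptin receptors, of -0.24 (adjusted p = 0.180 in edgeR). DESeq2 called 1 of the 7. Socs3, an inhibitor that leptin and other cytokines induce, stood at 2.09, 2.37 and 3.04 CPM in WT and 11.4, 6.51 and 1.87 CPM in ADCY3∆AT, so knockout replicate 3 lay below WT. Without that library Socs3 was called (log2 ratio 1.84, adjusted p = 0.0274 in edgeR), and DESeq2 called it with all libraries. Lepr itself was at most 0.78 CPM in any library and was not tested.

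Among 8 genes of adiponectin reception and assembly, 1 fell (against 1.67% of all tested genes). Cdh13, the T-cadherin that binds adiponectin on vessels, held 31.5, 32.3 and 31.2 CPM in WT and 25.9, 25.9 and 23.8 CPM in ADCY3∆AT (1.26-fold lower, adjusted p = 0.0478 in edgeR). That call ended when any single library was left out and held in 3 of the 8 other alternatives, with ratios from -0.37 to -0.29. The receptors Adipor1 and Adipor2 had log2 ratios of 0.37 (adjusted p = 0.230 in edgeR) and -0.12 (adjusted p = 0.400 in edgeR). Without WT replicate 1, Adipor1 was called (log2 ratio 0.61, adjusted p = 0.0292 in edgeR).

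None of 6 tested genes of retinol transport and handling was called by edgeR or limma-voom (2 at an unadjusted p under 0.05), and DESeq2 called 1. Rbp7, an intracellular retinol carrier, had 5.29, 5.84 and 6.76 CPM in WT against 19.8, 9.90 and 8.25 CPM in ADCY3∆AT (log2 ratio 1.08, adjusted p = 0.0944 in edgeR). Rdh10, which oxidises retinol, had a ratio of -0.31 (adjusted p = 0.206 in edgeR). Stra6, a membrane receptor for RBP4, was at 0 in the WT libraries, which allows up to 0.222 CPM, and at most 0.152 CPM in ADCY3∆AT.

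Among 10 tested genes of NAD synthesis and use, the pathway of NAMPT, 1 fell and 1 rose (against 4.3% of all tested genes called), and the list's median log2 ratio was -0.02. Nnmt, which uses up nicotinamide, the substrate of NAMPT, by methylating it, had 27.7, 20.4 and 31.6 CPM in WT and 10.8, 10.8 and 11.8 CPM in ADCY3∆AT. The libraries did not overlap, the log2 ratio was -1.26 (SE 0.15, adjusted p = 0.00639 in edgeR), and the call held in all 14 alternatives. Sirt1, a deacetylase that consumes NAD, had 13.4, 14.9 and 13.0 CPM in WT and 19.7, 18.1 and 18.2 CPM in ADCY3∆AT (log2 ratio 0.44, adjusted p = 0.0392 in edgeR). Its call ended when any single library was left out (adjusted p up to 0.147) and held in 7 of the 8 other alternatives.

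The complement genes that work with adipsin were not called by edgeR or limma-voom in 9 tests (1 at an unadjusted p under 0.05), and DESeq2 called 1. C3, the central complement protein, had 494, 476 and 632 CPM in WT and 653, 720 and 807 CPM in ADCY3∆AT (log2 ratio 0.44, adjusted p = 0.0826 in edgeR). The libraries did not overlap. C3 was called without WT replicate 3 (log2 ratio 0.58, adjusted p = 0.0393 in edgeR), with the replicate block (adjusted p = 0.0475) and in DESeq2 (adjusted p = 0.0116). Cd55, which breaks up complement convertases, had a ratio of -0.85 (adjusted p = 0.263 in edgeR). Cfb, factor B, the substrate of adipsin, was named for that role. It stood at 10.3, 5.69 and 15.2 CPM in WT and 9.63, 7.77 and 4.35 CPM in ADCY3∆AT, with groups that overlapped.

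Of 13 tested genes of the VEGF and apelin families, their receptors and partners, 1 rose (against 2.63% of all tested genes). Nrp2, a co-receptor for VEGF, had 66.2, 79.6 and 56.2 CPM in WT and 90.9, 105 and 122 CPM in ADCY3∆AT (log2 ratio 0.66, adjusted p = 0.0447 in edgeR). Its call ended without WT replicate 1 (adjusted p = 0.154), WT replicate 3 (0.107), knockout replicate 2 (0.117) or knockout replicate 3 (0.111). The same held with the replicate block (adjusted p = 0.0852) and with upper-quartile scaling (adjusted p = 0.0509), both in edgeR. No VEGF receptor was called by edgeR. Flt1, named for its role, had a ratio of 0.46 (adjusted p = 0.136 in edgeR) and was called by DESeq2 (adjusted p = 0.0436). Kdr, which carries most of the VEGF-A signal in endothelium, had a ratio of -0.35 (adjusted p = 0.157 in edgeR), and Flt4, the receptor of lymphatic vessels, of -0.05 (adjusted p = 0.880 in edgeR). The summed endothelial markers were 665 to 739 CPM in WT and 699 to 766 CPM in ADCY3∆AT.

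The receptors and relatives of FGF21 and neuregulins gave 0 calls in edgeR, DESeq2 and limma-voom among 10 tested genes. In edgeR 5 had an unadjusted p under 0.05, against 22.6% of all tested genes. Klb, the co-receptor that FGF21 needs, stood at 27.4, 22.9 and 20.6 CPM in WT and 18.5, 16.9 and 18.9 CPM in ADCY3∆AT, without overlap (log2 ratio -0.38, adjusted p = 0.105 in edgeR). Fgf1, a fibroblast growth factor that also acts on fat, had a ratio of 0.61 (adjusted p = 0.0926 in edgeR) and was called without WT replicate 2 (adjusted p = 0.0379).

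Further secreted factors of fat gave 3 calls, where 4.3% of all tested genes were called. Of 13 other batokines tested, 1 fell: Angptl8, an inhibitor of lipoprotein lipase activity that insulin induces, had 44.8, 22.5 and 60.5 CPM in WT and 15.5, 17.3 and 17.0 CPM in ADCY3∆AT. The log2 ratio was -1.37 (adjusted p = 0.0445 in edgeR). The call held without WT replicate 2 and ended without any other single library (adjusted p from 0.094 to 0.138), in limma-voom (adjusted p = 0.0773) and with the replicate block (adjusted p = 0.0741). Without WT replicate 3 the ratio was -1.03. Like Lep, it was highest in WT replicate 3 and lowest among WT libraries in replicate 2. Of 16 other adipokines tested, 2 rose. Angptl4, another inhibitor of lipoprotein lipase, had 102, 142 and 98.0 CPM in WT and 322, 211 and 222 CPM in ADCY3∆AT (log2 ratio 1.14, adjusted p = 0.0194 in edgeR), and its call ended without WT replicate 1 (adjusted p = 0.0908) or WT replicate 3 (0.07). Fst, follistatin, which binds activins, had 2.94, 2.37 and 3.55 CPM in WT and 17.0, 5.58 and 11.1 CPM in ADCY3∆AT (log2 ratio 1.92, adjusted p = 0.0330 in edgeR). Its call ended without any single WT library or knockout replicate 3 and in limma-voom (adjusted p = 0.0791).

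**Figure D5:**
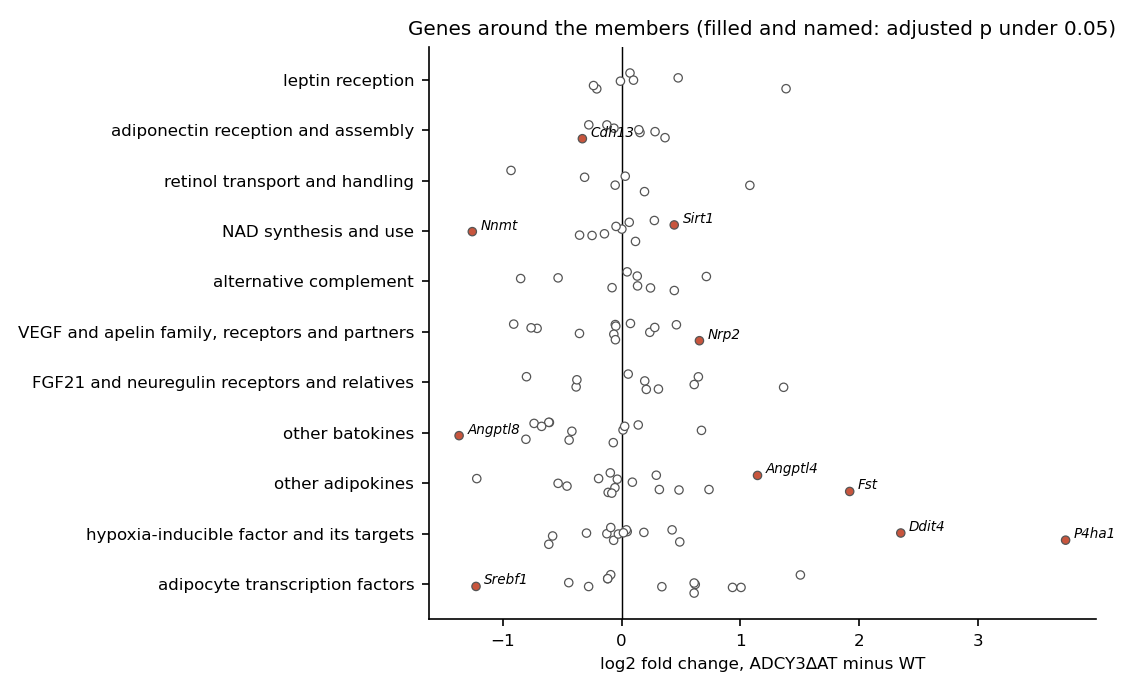
Log2 ratio (ADCY3∆AT minus WT) of each tested gene in the lists related to the members, 1 row per list, filled and named where called by edgeR (vertical offsets within a row only separate points). The called genes run from Angptl8 (-1.37) to P4ha1 (3.74).

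Hypoxia-inducible factor with its targets and adipocyte transcription factors were read as further lists. The genes called in the first are targets of that factor. Of 15 tested genes of hypoxia-inducible factor and its targets, 2 rose and 13 were not called. Of all tested genes, 2.63% were called higher. Vegfa is a known target too. P4ha1, a collagen prolyl hydroxylase, had 10.3, 10.6 and 10.1 CPM in WT and 92.4, 146 and 174 CPM in ADCY3∆AT (log2 ratio 3.74, adjusted p = 0.000490 in edgeR), in all 14 alternatives. Ddit4, a stress-induced inhibitor of mTORC1, had a ratio of 2.35 (adjusted p = 0.0479 in edgeR), with 253, 55.2 and 72.6 CPM in ADCY3∆AT and 21.4 to 29.3 CPM in WT. That call ended without any single WT library or knockout replicate 3. It also ended in limma-voom (adjusted p = 0.0863) and with upper-quartile scaling in edgeR (adjusted p = 0.0517). The median over the 15 genes was 0.02.

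Of 13 adipocyte transcription factors, 1 fell (against 4.3% of all tested genes called) and 9 had an unadjusted p under 0.05 (against 22.6% of all), of which 7 were positive. Srebf1, a driver of lipid synthesis that insulin raises, had 736, 596 and 702 CPM in WT and 248, 313 and 310.1 CPM in ADCY3∆AT (log2 ratio -1.22, adjusted p = 0.00235 in edgeR), in all 14 alternatives. The list's median was 0.34, beside -0.01 for all tested genes.

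The genes whose pattern over the 6 libraries was most like that of Lep were Smtnl2, Pgam2 and Fos. Likeness was the mean absolute difference of log2(CPM + 0.5), each gene centred on its own mean, over 11652 genes with a mean of at least 1 CPM. The difference was 0.316 for Smtnl2, a smoothelin-like gene, with 6.27, 5.62 and 12.3 CPM in WT and 1.65, 2.19 and 2.73 CPM in ADCY3∆AT (adjusted p = 0.0256 in edgeR, lost without WT replicate 1, knockout replicate 1 or knockout replicate 2). It was 0.390 for Pgam2, the phosphoglycerate mutase of muscle (log2 ratio -2.05, adjusted p = 0.0913 in edgeR), whose ratio was -1.14 without WT replicate 3. It was 0.405 for Fos, an immediate early gene, with 7.38, 9.90 and 11.2 CPM in WT and 2.09, 1.39 and 2.33 CPM in ADCY3∆AT (log2 ratio -2.27, adjusted p = 0.00378 in edgeR). Unlike Lep, Fos was called in all 14 alternatives. These genes were picked for their likeness to Lep in the same libraries. Their low ratios and small p-values therefore follow in part from that choice.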

How the data were processed

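RNA of brown adipose tissue was sequenced in 6 libraries, 3 of WT and 3 of ADCY3∆AT. The deposited table holds the authors' estimated counts per gene, not normalized, which the values show to be whole in 38% of entries above 0. The submitters' processing notes name GRCm38, StringTie, Salmon and edgeR, without roles or versions. Its 54385 rows were matched to GENCODE symbols of GRCm38 by gene ID (254 rows had no symbol), and no library column was left unmatched (0). After rounding the estimates to whole numbers, genes were kept by edgeR's filterByExpr (minimum count 10, minimum total 15), scaled by TMM and tested with edgeR's quasi-likelihood test (edgeR 4.0.16, limma 3.58.1, R 4.3.3) on genotype, with Benjamini-Hochberg adjustment over 14332 genes at 0.05. Exact permutation tests on log2(CPM + 0.5) were two-sided. Fitted intervals are 95% intervals.

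Library totals ran from 13758492 to 19592156 counts. A count of 0 allows 3 counts, for counting error only. The alternatives were DESeq2 (1.42.0), limma-voom, other scalings, other filters, a replicate block and leaving out each library. Libraries with the same number did not vary together, so the block is given only with the alternatives. The code was tested on simulated data.

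The members and gene lists were chosen with earlier results of these data known. All members were named. From each list, up to 3 called genes with the smallest p were named, or 2 where none was called. From each list of cell markers, the most abundant gene and the called gene with the smallest p were eligible. The 3 genes most alike in pattern to each called member were named too. Aplnr, Adipor1, Adipor2, Kdr, Flt1, Hoxc8, Cfb, Socs3 and Cebpa were added for their roles, after their values were seen. Lepr, Stra6, Flt4, Tbx15, Zic1, Lhx8, Hoxc9, Hoxc10, Ppargc1a, Cebpb and Cebpd were chosen in the same way.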

Additional observations from a re-analysis of the deposited data

How the results depend on the processing

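Over 14 alternatives, 54 named genes gave 756 values, of which 643 kept direction and side of the threshold, 62 lost a call, 39 gained one and 12 changed sign. edgeR's 616 called genes became 993 in DESeq2, 1951 without a filter, 324 with a replicate block and 162 to 461 without a single library. Called members were 2 in DESeq2 (Lep, Apln), 0 in limma-voom, 4 without a filter (Lep, Apln, Cfd, Rbp4), 1 with the replicate block (Lep, log2 fold change -2.19, adjusted p = 0.00286 in edgeR) and 0 to 1 without a single library, where the 1 without knockout replicate 1 was Rbp4. Without a filter the log2 fold changes of these 4 moved little (Lep -2.21, Apln -1.05, Cfd -0.416, Rbp4 -0.448), while their fitted SEs were smaller. The SE was 0.122 against 0.435 in the main analysis for Lep and 0.169 against 0.299 for Apln. It was 0.0851 against 0.361 for Cfd and 0.0962 against 0.28 for Rbp4. Same-numbered libraries correlated at -0.007, 0.007 and -0.045 in their deviations from group means, so they share only a number. Called genes in the related lists moved as follows. DESeq2 called 1 for leptin reception, 0 for adiponectin, 1 for retinol, 1 for complement, 2 for VEGF and apelin, 2 for other batokines, 5 for hypoxia and 6 for transcription factors. Without a filter the counts were 2 for leptin, 1 for retinol, 3 for complement, 6 for VEGF and apelin, 4 for FGF21 and neuregulins, 4 for other batokines, 5 for other adipokines, 5 for hypoxia and 9 for transcription factors. limma-voom called 0 for adiponectin and other batokines and 1 for other adipokines and hypoxia. The replicate block gave 1 for NAD and complement and 0 for adiponectin, VEGF and apelin, and other batokines. Upper-quartile scaling gave 0 for VEGF and apelin, 1 for hypoxia and 2 for transcription factors, and library size alone 0 for adiponectin. Leaving out single libraries gave 0 to 1 for leptin, adiponectin, complement, FGF21 and other batokines, 1 for NAD, 0 to 2 for VEGF and apelin and other adipokines, 1 to 3 for hypoxia and 1 to 2 for transcription factors. Log2 fold changes that changed sign, none of them called in the main analysis, were those of Retn (-0.761 to 0.226 without single libraries), Lyz2 (-0.199 to 0.38), Ptprc (-0.054 to 0.715), Col3a1 (-0.461 to 0.021), S100b (-0.041 to 0.082, and -0.013 with upper-quartile scaling) and Hbb-bs (-0.417 to 0.105). Why these values moved was not tested. With 3 libraries a group, an exact p cannot fall below 0.1, and Fgf21 and Lepr were too low to test.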

Other observations

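Of the marker lists of other cell types, skeletal muscle held the most called genes: edgeR called 8 of 9 tested lower in ADCY3∆AT, DESeq2 all 9 and limma-voom 0. Among 8 tested markers of mural cells 1 fell (against 1.67% of all tested genes). Cspg4, the NG2 proteoglycan of pericytes and other mural cells, fell from 94.7, 109 and 104 CPM in WT to 67.3, 73.2 and 69.7 CPM in ADCY3∆AT (log2 fold change -0.55, adjusted p = 0.00933 in edgeR), in all 14 alternatives. Rgs5, another pericyte gene, was 293 CPM in WT and 365 CPM in ADCY3∆AT (log2 fold change 0.32, adjusted p = 0.102 in edgeR), and the summed mural markers overlapped (541 to 632 CPM against 617 to 659 CPM). Cdh5 of endothelium was not called (log2 fold change -0.05, adjusted p = 0.702 in edgeR).

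Markers of blood and stroma overlapped between genotypes. None of Lyz2 (macrophages, log2 fold change 0.09), Ptprc (leukocytes, 0.38), Col3a1 (fibroblasts, -0.20), S100b (Schwann cells, 0.03) and Hbb-bs (red cells, -0.18) was called by edgeR. Myh4, a myosin of fast skeletal muscle, had 7.05, 27.2 and 165 CPM in WT and 0.22, 0.133 and 0.0506 CPM in ADCY3∆AT (adjusted p = 0.0271 in edgeR, 0.363 in limma-voom, and not called without any single knockout library, at 0.0642 to 0.0972).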
